A study of Mus musculus with 18 samples.

Results

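The libraries described here are the 8 of 18 that hold Nsd1 KO cells at day 0 and at day 2 of monolayer differentiation, 4 per day, and they were chosen by genotype and day as labelled. They came from 2 single-cell-derived E14 mouse embryonic stem cell (mESC) clones, KO-1 and KO-2, each with a homozygous deletion of Nsd1 exon 5 and each sequenced as 2 biological replicates per day. At day 0 the cells grew with leukemia inhibitory factor (LIF) on a feeder layer of inactivated mouse embryonic fibroblasts. At day 2 both LIF and the feeder cells had been gone for 2 days and the cells stood on gelatin, so that the effect of the cytokine and that of the fibroblasts cannot be told apart. The same withdrawal was carried out on WT E14 cells, with 2 libraries per day, and 6 further libraries hold day 4 of the WT and KO lines. Per the methods of the study, the KO clones were made in cells with Flag-tagged Nsd1 alleles. The sources used here do not say whether the WT libraries carry the tag, so an effect of such a difference in background and that of the KO cannot be told apart. Each KO line is 1 clone, nothing in the labels says that the biological replicates were separate differentiations, and p-values over the 4 KO libraries of a day therefore measure the spread between these libraries only.

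Polyadenylated RNA was sequenced and counted per gene. The KO libraries held 9644240, 18263995, 16760194 and 15962776 counts at day 0, and 15278867, 14900945, 19445827 and 14595828 at day 2 (KO-1 replicates 1 and 2, then KO-2 replicates 1 and 2, an order kept for all values by library). The depth did not differ between the days beyond this spread (two-sided exact permutation test, p = 0.771; the smallest p that 4 against 4 libraries allow is 0.0286). The 2 KO-1 libraries of day 0 stood apart from each other. The SD of their difference over 10351 genes was 0.152 on the log2 scale, against 0.0621 to 0.111 in the other 5 pairs of day 0 and day 2, and replicate 1 was the shallowest of the 8. Without this library 688 genes in place of 662 were called in KO, with 16 in place of 15 naive genes lower and 9 in place of 8 formative genes higher, and the counts of LIF/STAT3 targets and feeder markers given below were the same.

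LIF binds the LIF receptor and gp130, activates JAK kinases and, through them, the transcription factor STAT3, which sustains the genes of naive pluripotency in mESCs grown in serum. When LIF is removed, these cells leave the naive state, pass through a formative state resembling the early postimplantation epiblast, and later form the germ layers. Nsd1 is a histone methyltransferase of H3K36. The question of the comparison was what still changed after LIF withdrawal in cells without intact Nsd1.

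The Nsd1 gene itself served as a check of the labels. Normalised counts of Nsd1, which are counts divided by the size factors of the libraries, in KO cells were 837, 711, 689 and 635 on day 0, then 854, 927, 964 and 1024 on day 2 (log2 difference 0.25, not called). In WT they were 3374 and 3660 at day 0 and 2773 and 3344 at day 2, above all 8 KO libraries. Reads outside the deleted exon are still counted, so the remaining level says nothing of the protein. The embryonic stem cell markers Pou5f1, Sox2, Nanog, Zfp42 and Esrrb all reached 6157 normalised counts or more in each KO library at day 0.

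In KO cells, 662 of 20703 genes changed between day 0 and day 2, of which 296 rose and 366 fell. A gene was called changed when the adjusted p of limma was under 0.01 and the log2 difference of the variance-stabilized (VST) values exceeded 0.58 either way. The called share was 3.2% of all genes tested, 1.43% higher and 1.77% lower, and these are the backgrounds for the counts of listed genes below. The VST compresses differences of weakly expressed genes, so fold changes of mean normalised counts are given beside the log2 differences where they help. A gene with only a few counts on both days cannot reach the fold threshold on this scale. For 296 of 296 genes that rose and 365 of 366 that fell, the 4 libraries of one day did not overlap with the 4 of the other, a gap that the call largely fixes and that was found in 33.6% of all genes. On recovered counts limma-voom, which does not compress low counts, called 7.14% of the genes higher and 9.2% lower. It made the same call for 295 of the 296 genes that rose and for all 366 that fell.

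The LIF/STAT3 target genes fell in KO cells: 8 of 16 were called lower and 0 higher, with a median log2 difference of -0.70, beside a median of -0.00 over all genes tested. Summed over the list, normalised counts went from 47663 ± 1378 at day 0 to 12909 ± 412 at day 2 (mean ± SD, n = 4; exact permutation p = 0.0286). Socs3, the feedback inhibitor of the JAK/STAT pathway, stood at 3067, 2789, 3347 and 3695 at day 0 and at 129, 119, 155 and 124 at day 2. The 2 days were separated by more than an order of magnitude in every library. The log2 difference of Socs3 was -2.65 ± 0.06 (SE, adjusted p = 2.06e-17), and its mean normalised count at day 2 was 0.0409 of that at day 0. Bcl3, an atypical IκB protein, went from 658, 920, 1072 and 1105 to 22.4, 5.08, 17.9 and 14.8, or to 0.0160 of its day 0 mean (log2 difference -1.90 ± 0.08). The cell adhesion molecule Icam1 went from 1884, 1898, 2054 and 2081 to 346, 335, 373 and 295, or to 0.170 of the day 0 mean. Junb, a subunit of the AP-1 factor, and Pim3, a serine/threonine kinase, fell to 0.165 and 0.478 of their day 0 means. The other 3 called members were Klf4, Klf5 and Tfcp2l1, transcription factors of the naive network that are described with it. Members that were not called included Pim1 (log2 difference -0.22), Myc (-0.24) and Gbx2 (-0.06).

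The STAT consensus motif TTCNNNGAA, which reads the same on both strands, was searched in the RefSeq promoter windows (GRCm38.p6, 250 bases before to 50 after the start). It was found for 3 of the 13 target genes that matched the promoter table, Socs3, Icam1 and Cish, and for 9.55% of all 27025 genes in it. The stretches around the motif are shown for the 2 of these genes that were called lower, as the sequence context of strongly falling LIF/STAT3 targets, with the motif in capitals. The Socs3 stretch lies on the minus strand at chr11:117969482-117969550 and its motif begins 154 bases before the start. The Icam1 stretch lies on the plus strand at chr9:21015868-21015936 and its motif begins 42 bases before the start.
Socs3: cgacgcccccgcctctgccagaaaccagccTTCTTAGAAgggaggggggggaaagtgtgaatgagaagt
Icam1: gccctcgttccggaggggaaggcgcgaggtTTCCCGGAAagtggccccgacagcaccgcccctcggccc
A match of these letters is a description of the sequence, and binding was not measured in these files. Bcl3, Klf4, Tfcp2l1, Junb and Pim3 were called lower with no match in their windows.

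Of 12 genes of the LIF receptor and its signalling chain, 2 were called lower in KO and 0 higher. Stat3, the transcription factor of the pathway, was at 3255, 3005, 2782 and 2690 at day 0 and at 489, 559, 481 and 483 at day 2, with no overlap between the days (log2 difference -1.75 ± 0.06, adjusted p = 7.03e-15). Lifr, the ligand-binding receptor chain, fell by 0.70 on the log2 scale, from 2426 ± 411 to 1272 ± 243. This call was lost in KO-2 taken alone. Il6st, which encodes gp130, stood at 3409, 2709, 2680 and 2871 and then at 2498, 2657, 2842 and 3162, and the 2 days overlapped (log2 difference -0.05 ± 0.07, adjusted p = 0.631). In WT cells Il6st fell by 1.15, and the difference between the responses was 1.10 ± 0.13 (adjusted p = 4.49e-06). The kinase Tyk2 had log2 differences of 0.02 in KO and -0.72 in WT, and this difference between the responses was also called (0.74 ± 0.08). For Stat3 the WT log2 difference was -1.60, and the difference from KO was not called (-0.15 ± 0.10, adjusted p = 0.324).

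**Figure D1:**
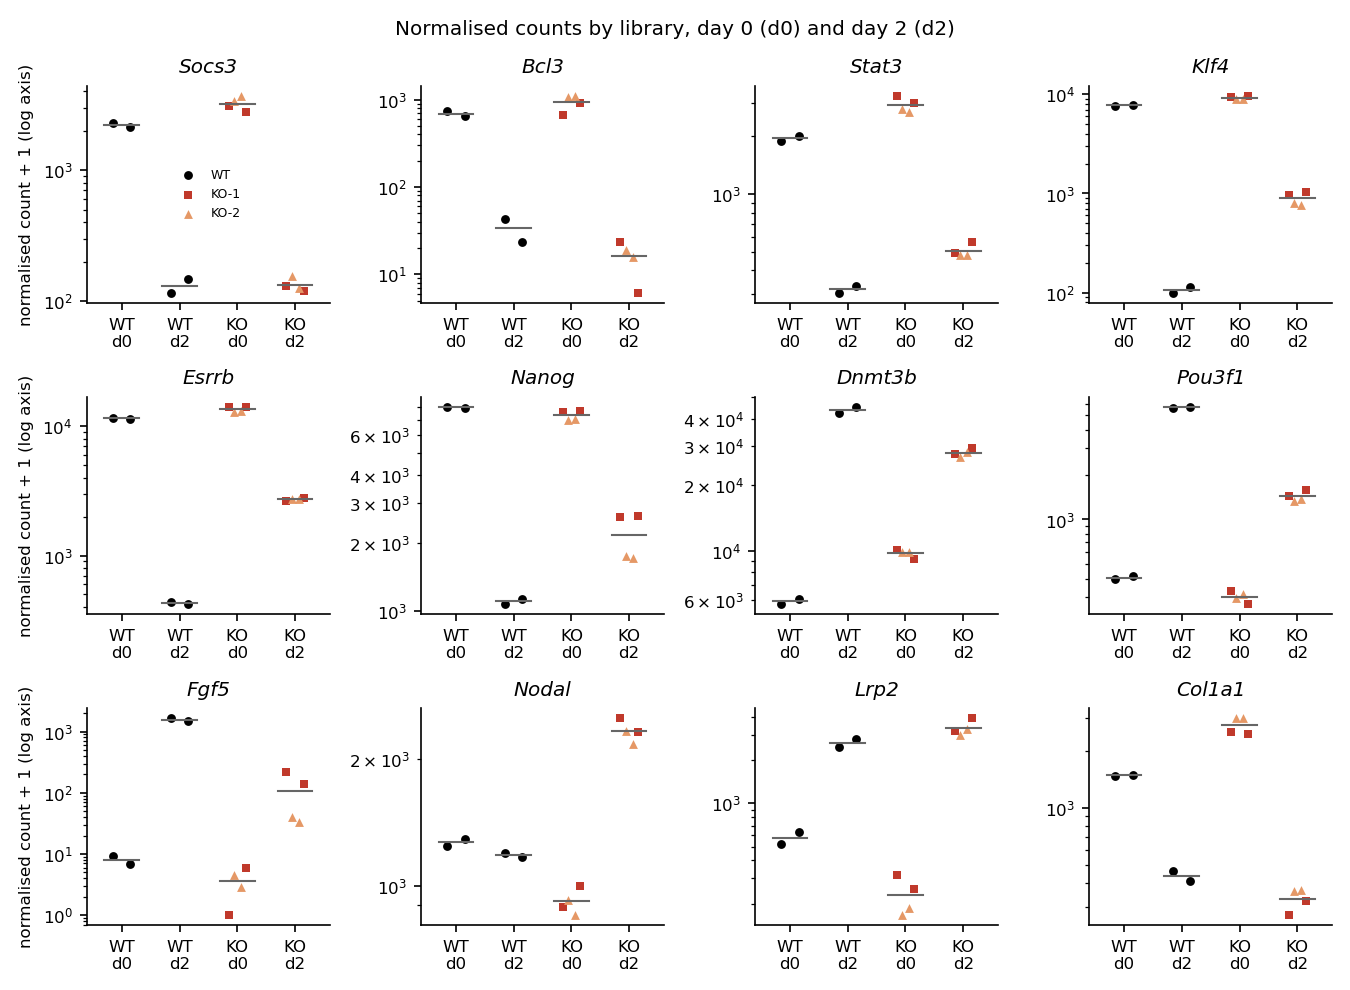
Normalised counts plus 1 (log axis) of 12 genes in each library of WT, KO-1 and KO-2 at day 0 (d0) and day 2 (d2), with a bar at the mean of each group. The 4 KO libraries of day 2 lie on one side of the 4 KO libraries of day 0 in all 12 panels, as for Socs3 (119 to 155 against 2789 to 3695), while Klf4, Esrrb, Dnmt3b and Pou3f1 end nearer to day 0 in KO than in WT.

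Genes of naive pluripotency fell with the largest share of called members among the 30 lists: 15 of 20 were called lower in KO and 0 higher, with a median log2 difference of -1.22. Their summed normalised counts went from 96741 ± 2497 to 29748 ± 3459 (n = 4, exact permutation p = 0.0286). Klf4, a Krüppel-like factor downstream of STAT3, was at 9376, 9655, 8947 and 9029 at day 0 and at 972, 1037, 808 and 759 at day 2 (log2 difference -2.75 ± 0.09, adjusted p = 7.03e-15). Every day 2 library of Klf4 was at less than an eighth of every day 0 library. Tfcp2l1, a STAT3-driven factor of naive self-renewal, was at 15054, 12241, 11314 and 11330 and then at 1580, 1996, 1592 and 1759 (-2.48 ± 0.17). Klf5 went from 4360 ± 652 to 472 ± 60.5, and the T-box factor Tbx3 from 3239 ± 211 to 281 ± 27.2 (log2 differences -2.28 and -2.27). The orphan nuclear receptor Esrrb was at 14113, 14054, 12937 and 13166 and then at 2640, 2786, 2718 and 2729 (-2.09 ± 0.06). These 5 genes and Socs3 were among the 10 largest falls.

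The other 10 called naive genes had smaller log2 differences. Nanog, a homeobox factor of the pluripotency network, was at 7617, 7692, 7037 and 7049 at day 0 and at 2604, 2632, 1745 and 1712 at day 2 (log2 difference -1.54 ± 0.11). At day 2 both KO-1 libraries were above both KO-2 libraries for Nanog, and all 4 were below day 0. Zfp42 (Rex1), a widely used naive marker, kept 0.322 of its day 0 mean (-1.49), the growth factor gene Fgf4 kept 0.270 (-1.48) and the nuclear receptor Nr0b1 kept 0.153 (-1.71). Klf2 was at 6621, 7518, 7506 and 7538 and then at 3268, 3134, 3140 and 2948, so that it kept 0.428 of its mean (-1.08 ± 0.06). Tet2, Tcl1, Tdh, Nr5a2 and Prdm14 completed the called members, with log2 differences between -1.37 and -0.77. Of the 5 members not called, Pecam1 was at 371, 400, 223 and 173 and then at 433, 425, 255 and 246, where the clones differed by more than the days. Zfp57 (-0.49), Dppa3 (-0.54), Dppa5a (-0.33) and Gbx2 (-0.06) were the others, and limma-voom called the first 2 of these lower.

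For 13 of the 20 naive genes the difference between the responses of KO and WT was called, in each case with the KO response above that of WT, where 2.08% of all genes had a KO response called above that of WT and 1.11% below. The WT list median was -1.90, with 17 genes called lower, where 4.02% of all genes were called lower and 2.66% higher in WT. Klf2 fell by 2.84 in WT and the difference between the responses was 1.76 ± 0.10 (adjusted p = 6.24e-10). For Esrrb it was 1.55 ± 0.11, for Zfp42 1.40 ± 0.08 and for Tfcp2l1 1.36 ± 0.30. Klf4 ended at 97.8 and 113 normalised counts in the WT libraries of day 2, against 759 to 1037 in KO. Klf5, Nr0b1, Fgf4 and Tet2 had no called difference between the responses, although limma-voom called that of Nr0b1. The largest such difference in the whole table among named genes was that of Pecam1, an adhesion molecule of naive cells, which fell from 2264 and 2085 to 212 and 211 in WT (2.06 ± 0.17), and its KO level at day 0 was already near the WT level of day 2.

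Of 12 core pluripotency genes, 1 was called higher and 2 lower in KO. Pou5f1, which encodes Oct4, was at 6157, 6938, 7016 and 7260 and then at 6072, 5422, 4861 and 4710. The days did not overlap, but the log2 difference of -0.35 ± 0.07 was under the fold threshold. Sox2, its partner factor, fell from 11527 ± 148 to 6562 ± 284 (-0.76 ± 0.05), and it fell by 1.94 in WT, a called difference of 1.18 ± 0.08. Tdgf1, a coreceptor of Nodal, went from 16806 ± 411 to 3578 ± 264 in KO (-2.05), and it kept 0.213 of its day 0 mean in KO and 0.229 in WT (difference between the responses -0.06 ± 0.09). Lin28a, an RNA-binding protein that blocks let-7 maturation, rose by 0.74, a call lost in KO-1 taken alone.

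Formative epiblast genes rose in KO cells. Of 16, 8 were called higher and 1 lower, with a median log2 difference of 0.59, and their sum went from 24467 ± 894 to 50663 ± 1711 (n = 4, exact permutation p = 0.0286). Most of the rise in this sum came from Dnmt3b, its most abundant member at day 0. Dnmt3b, a de novo DNA methyltransferase, was at 10153, 9240, 9898 and 9904 at day 0 and at 27528, 29324, 26765 and 28101 at day 2, a 2.85-fold rise without overlap (1.45 ± 0.06, adjusted p = 1.96e-13). Pou3f1 (Oct6), a POU factor of the early epiblast, was at 328, 269, 296 and 314 and then at 1433, 1586, 1323 and 1370, a 4.73-fold rise (1.29 ± 0.05). The zinc finger factor Sall2 was at 157, 131, 124 and 129 and then at 1446, 1532, 1125 and 1140, a 9.68-fold rise (1.62 ± 0.07). Sox3 and the methyltransferase gene Dnmt3a rose 3.81-fold and 1.69-fold. Otx2, a homeobox factor that drives the exit from the naive state, was at 146, 136, 142 and 150 and then at 738, 770, 300 and 251. Its rise was 1.09 in KO-1 and 0.33 in KO-2 on the log2 scale, and the call was lost in KO-2 taken alone. Fgf5, a growth factor that marks the epiblast, was at 0, 4.91, 3.55 and 1.87 and then at 216, 140, 39.8 and 32.7, again with both KO-1 libraries above both KO-2 libraries (0.65 ± 0.15). The call of Fgf5 was lost with limma-voom and in KO-2 taken alone. Etv4, an ETS factor downstream of FGF, was the one member called lower (-0.59).

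For 8 of the 16 formative genes the KO response was called below that of WT, and for 1, Tcf15, above it. With limma-voom 5 of the 8 kept the call, and those of Fgf5, Otx2 and Sox3 were lost. Tcf15, a bHLH factor, had log2 differences of 0.55 in KO and -0.45 in WT, neither of them called. In WT 11 members were called higher and 0 lower, with a median of 0.92. Dnmt3b rose 7.41-fold, Pou3f1 14.05-fold and Sall2 24.9-fold in WT, and the differences between the responses were -1.31 ± 0.10, -1.44 ± 0.09 and -0.97 ± 0.11. Fgf5 reached 1674 and 1467 in the WT libraries, a difference of -1.87 ± 0.26 (adjusted p = 2.77e-05). Zic2, a zinc finger factor of the epiblast, was at 3392, 2962, 2537 and 2719 at day 0 in KO and at 2520, 2921, 2604 and 2814 at day 2, overlapping between the days, while it rose from 818 and 757 to 3591 and 4373 in WT (-1.83 ± 0.15). The KO level of Zic2 at day 0 was thus already above that of WT. Of the list, Dnmt3a had no called difference (-0.33 ± 0.10).

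**Figure D2:**
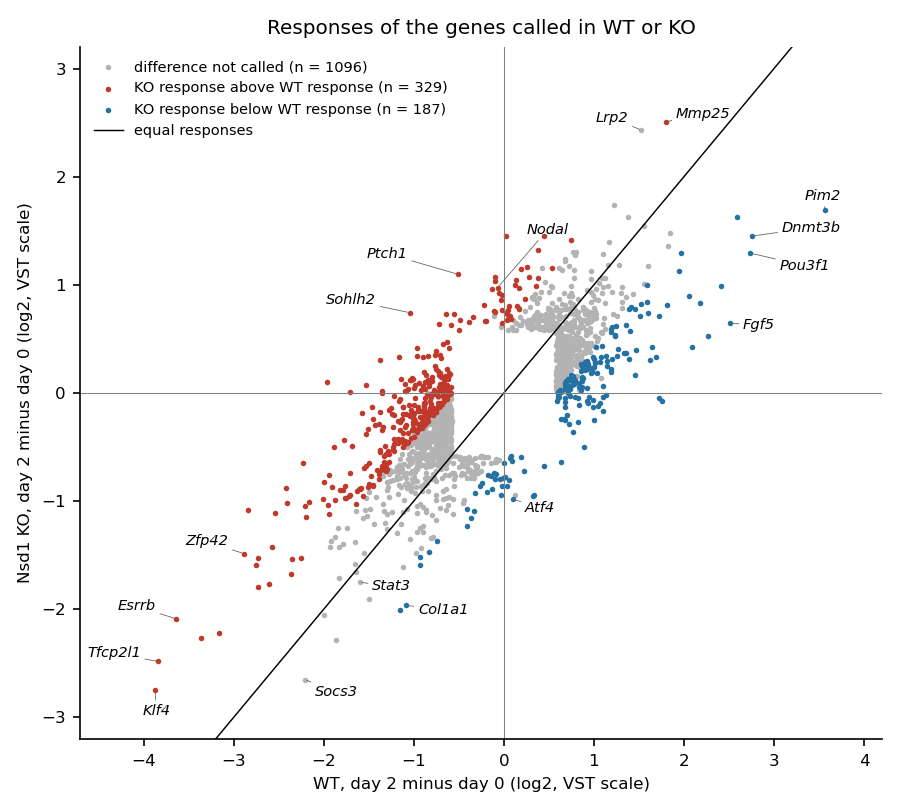
Day 2 minus day 0 in KO (vertical) against WT (horizontal), as log2 differences on the VST scale, for the 1612 genes called in either, with the line of equal responses. Red points (329) have a KO response called above that of WT, blue points (187) below, and grey points (1096) neither. Klf4, Tfcp2l1 and Esrrb at the lower left lie above the line, and Dnmt3b, Pou3f1, Pim2 and Fgf5 at the right lie below it.

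Most genes called in one genotype had the same sign in the other. The 551 genes called higher and 832 called lower in WT had median log2 differences of 0.76 and -0.83 there and of 0.38 and -0.42 in KO. In KO 93.8% of the first and 91.1% of the second had the same sign as in WT. The genes called in KO had medians of 0.73 (higher) and -0.78 (lower) there and of 0.62 and -0.92 in WT, where 91.2% and 95.9% had the same sign. A choice of genes by the call of one genotype favours a larger response in that genotype, so these medians do not rank the 2 responses. Called in both were 157 genes that rose, which are 28.5% of those called in WT and 53.0% of those called in KO, and 272 genes that fell, which are 32.7% and 74.3%. The WT and KO comparisons share no library. Across all 20703 genes, which are not independent replicates, the KO and WT responses correlated with r = 0.667. The share of all genes with the same sign in both genotypes was not computed. A direct test of the difference between the responses called 430 genes with KO above WT and 230 below. Among the 662 genes called in KO, 48 of those that rose had a larger rise than in WT by this test and 24 a smaller one, and 38 of those that fell had a larger fall and 63 a smaller one. A total of 4 genes were called in opposite directions. Sohlh2, Trp53inp1 and Ntn1 rose in KO and fell in WT, and App fell in KO and rose in WT. The KO call of Ntn1 was lost in KO-1 taken alone (log2 difference 0.41).

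Of 15 immediate early genes, which respond to growth factor signalling within minutes, 7 were called lower in KO and 0 higher (median -0.50), and limma-voom called 10 lower. Egr1, a zinc finger factor induced by ERK, was at 5701, 5518, 5178 and 5105 and then at 827, 851, 598 and 627 (log2 difference -2.22 ± 0.06). Fos, a subunit of AP-1, was at 1355, 1353, 1457 and 1494 and then at 124, 144, 103 and 104 (-1.77 ± 0.04), and Egr2 kept 0.0672 of its day 0 mean. Fosb, Junb, Klf10 and Fosl2 were the other called members, and the calls of the last 2 were lost in KO-1 taken alone (-0.49 and -0.54). Egr1 and Fos fell by 3.16 and 2.60 in WT, and for both and for Fosb the smaller fall in KO was a called difference (0.94, 0.84 and 1.16). Jun and Jund had log2 differences of 0.03 and 0.07 in KO.

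Among 20 genes of FGF signalling and ERK feedback, 3 rose and 4 fell, and limma-voom called 3 higher and 7 lower. The ligands went in different directions, with Fgf4 called lower and Fgf5 and Fgf8 called higher. Fgf8 was at 9.64, 8.19, 15.1 and 20.6 and then at 135, 169, 158 and 134 (0.67 ± 0.05). The feedback inhibitors Spry2 and Spry4 fell to 0.421 and 0.496 of their means, the latter a call lost in KO-2 taken alone (-0.46), while the phosphatase gene Dusp4 rose 2.44-fold. Dusp6, another ERK phosphatase, had a log2 difference of 0.29 in KO and 1.01 in WT, and this difference between the responses was called (-0.72 ± 0.14).

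The Nodal pathway held 5 genes called higher and 3 called lower of 17, with 8 and 3 by limma-voom. Nodal, the TGF-β family ligand of the epiblast, was at 893, 1002, 928 and 853 at day 0 and at 2505, 2321, 2335 and 2175 at day 2, a 2.54-fold rise with no overlap (0.97 ± 0.05, adjusted p = 1.65e-12). In WT Nodal stood at 1245 and 1292 and then at 1199 and 1170, and the difference between the responses was 1.04 ± 0.08 (adjusted p = 3.07e-08). Lefty1, a secreted Nodal antagonist, was at 3568, 3923, 4416 and 4405 and then at 6721, 6370, 7786 and 7467 (0.71 ± 0.13), and its difference from WT was not called (adjusted p = 0.0113). Foxh1, the DNA-binding partner of SMAD2, rose 2.45-fold, the receptor gene Acvr2b 2.35-fold, and Skil, a corepressor of SMADs, 1.82-fold. The call of Skil was lost in KO-1 taken alone, where its log2 difference was 0.54. The coreceptor gene Tdgf1, the inhibitory Smad7 and the proprotein convertase Pcsk6 fell. Lefty2 had a log2 difference of -0.51 ± 0.11 and was not called.

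Of 19 BMP pathway and Id genes, 1 rose and 2 fell, where limma-voom called 2 higher and 5 lower. Id1, an inhibitor of bHLH factors, went from 99.6, 174, 183 and 200 to 612, 601, 821 and 738, a 4.22-fold rise with no called difference from the WT response (0.02 ± 0.19), while the ligand Bmp4 and the antagonist Grem1 kept 0.164 and 0.108 of their means. Of 19 Wnt ligands and targets, 2 rose and 1 fell, and limma-voom called 6 higher and 3 lower. The ligand Wnt8a went from 6.42, 6.55, 1.77 and 9.35 to 249.6, 250.1, 195 and 228 (0.99 ± 0.06), and Wnt7b kept 0.246 of its day 0 mean (-1.07 ± 0.05). Of 14 genes of the Hippo pathway and its YAP targets, 0 rose and 3 fell, among them the matricellular Ccn2 (-1.12). By limma-voom 3 of the 14 were higher and 5 lower.

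**Figure D3:**
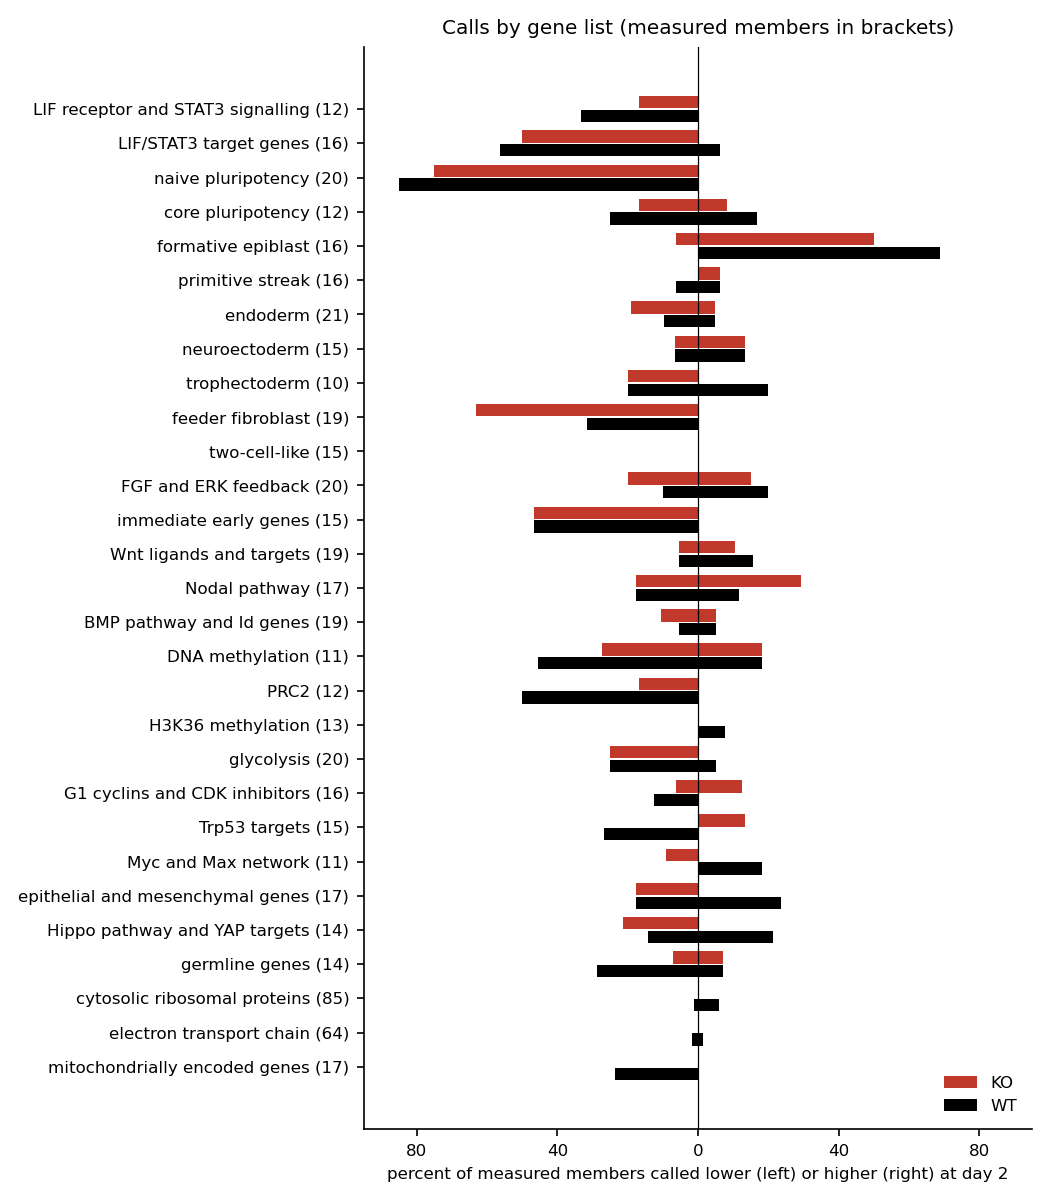
Percent of the measured members of 29 gene lists called lower (left) or higher (right) at day 2, for KO (red) and WT (black), with the number of measured members in brackets. The longest KO bars are those of naive pluripotency (15 of 20 lower), feeder fibroblast (12 of 19 lower) and, to the right, formative epiblast (8 of 16 higher).

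Markers of the germ layers are used to follow mESCs after they leave the naive state. Of 16 primitive streak genes, 1 was called higher, Fgf8, and 0 lower. Members such as T, Mesp1 and Msgn1 had only a few counts on both days, so the VST scale fixed that they would not be called. The T-box genes T (Brachyury) and Eomes were at 1.74 ± 2.51 and 42.3 ± 13.4 at day 0 and at 1.41 ± 1.92 and 59.0 ± 10.7 at day 2. The sum of the list went from 194 ± 28.6 to 539 ± 40.3 (exact permutation p = 0.0286), and limma-voom called 4 genes higher and 0 lower, which were Fgf8, Wnt3 (log2 difference 0.54 by limma), Sp5 (0.38) and Foxa2 (0.33). Of 15 neuroectoderm genes, 2 rose and 1 fell, with a median log2 difference of 0.00. Their sum, in which Tubb3 was the most abundant at day 0, went from 5542 ± 546 to 4764 ± 109 (exact permutation p = 0.0286). The fall of the sum came mainly from Tubb3 and from Ncam1, the member called lower, while Sox1 and Sox11 were the members called higher. KO-1 replicate 1 of day 0 stood high in this sum, at 6352. Sox1, the earliest factor of the neural plate, was at 27.3, 33.6, 32.8 and 22.4 and then at 185, 162, 212 and 234 in KO (0.67 ± 0.06), while in WT it was at 53.7 and 63.3 and then at 22.8 and 30.8, a called difference of 0.86 ± 0.10. Sox11 rose 3.81-fold in KO and 3.76-fold in WT. Nes, an intermediate filament of neural progenitors, had a log2 difference of -0.05 in KO and 1.72 in WT (-1.77 ± 0.20). The KO level of Nes at day 0 was already above that of WT.

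Of 21 endoderm genes, 1 rose, the adaptor gene Dab2, and 4 fell, where limma-voom called 3 higher and 7 lower. The sum of the list went from 23347 ± 2155 to 15184 ± 914 (exact permutation p = 0.0286). The 4 were genes of the basement membrane, Lama1, Lamc1, Col4a1 and Col4a2, which other cells also make. The call of Lamc1 was lost in KO-2 taken alone (-0.45). Col4a1 was at 1028, 949, 873 and 957 and then at 299, 406, 328 and 350 (-0.81 ± 0.05), and in WT it had a log2 difference of 0.06 (difference between the responses -0.87 ± 0.09). The defining factors Gata6 and Sox17 were at 13.4 ± 3.56 and 11.6 ± 2.44 at day 0 and at 5.85 ± 2.65 and 2.99 ± 3.36 at day 2, where they were near the floor of 3 counts per library. Of 10 trophectoderm genes, Tfap2c and Tead4, which mESCs also express, fell and 0 rose, and limma-voom called 5 lower and 0 higher. The sum of this list went from 3684 ± 463 to 1490 ± 105 (exact permutation p = 0.0286). Of 15 measured genes of the two-cell-like state, 0 were called by limma, while limma-voom called 9 lower. Their counts were low on both days, where the VST scale leaves little room for a call by limma. An unadjusted p under 0.05 of limma was found for 10 of the 15, and for 8997 of all 20703 genes. The two-cell-like sum went from 321 ± 44.5 to 120 ± 17.2, and reads of the near-identical Zscan4 and Usp17l copies may have been split between them.

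The listed feeder fibroblast markers fell after LIF and the feeder cells were withdrawn together, and the effects of these cannot be told apart. Of 19 measured markers, 12 were called lower in KO and 0 higher, with a median log2 difference of -0.73. Their sum was 9385, 9238, 10473 and 10730 at day 0 and 1835, 1789, 2176 and 2092 at day 2. In WT the sum was 5929 and 5699 at day 0 and 2148 and 1979 at day 2, with 6 markers called lower. The KO libraries of day 0 thus held more of these transcripts than the WT libraries, and those of day 2 a similar amount. Col1a1, the most abundant marker, was at 2509, 2455, 2994 and 2971 and then at 269, 319, 362 and 365 (-1.96 ± 0.11). Fbln2, Col1a2 and Col3a1 kept 0.133, 0.136 and 0.142 of their means, and Prrx1, a fibroblast transcription factor, 0.0773. The defining markers Dcn and Lum were near 0 at both days, at 5.23 ± 4.50 and 0 at day 0 and at 4.17 ± 3.21 and 0.898 ± 1.06 at day 2. For Col1a1, Col1a2, Col3a1, Fbln2 and Thy1 the fall was larger in KO than in WT, and limma-voom called that difference for Thy1 and not for the first 4. In bulk RNA, fewer cells of a type and less RNA per cell cannot be told apart, and the part of feeder RNA in the other falls was not tested.

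**Figure D4:**
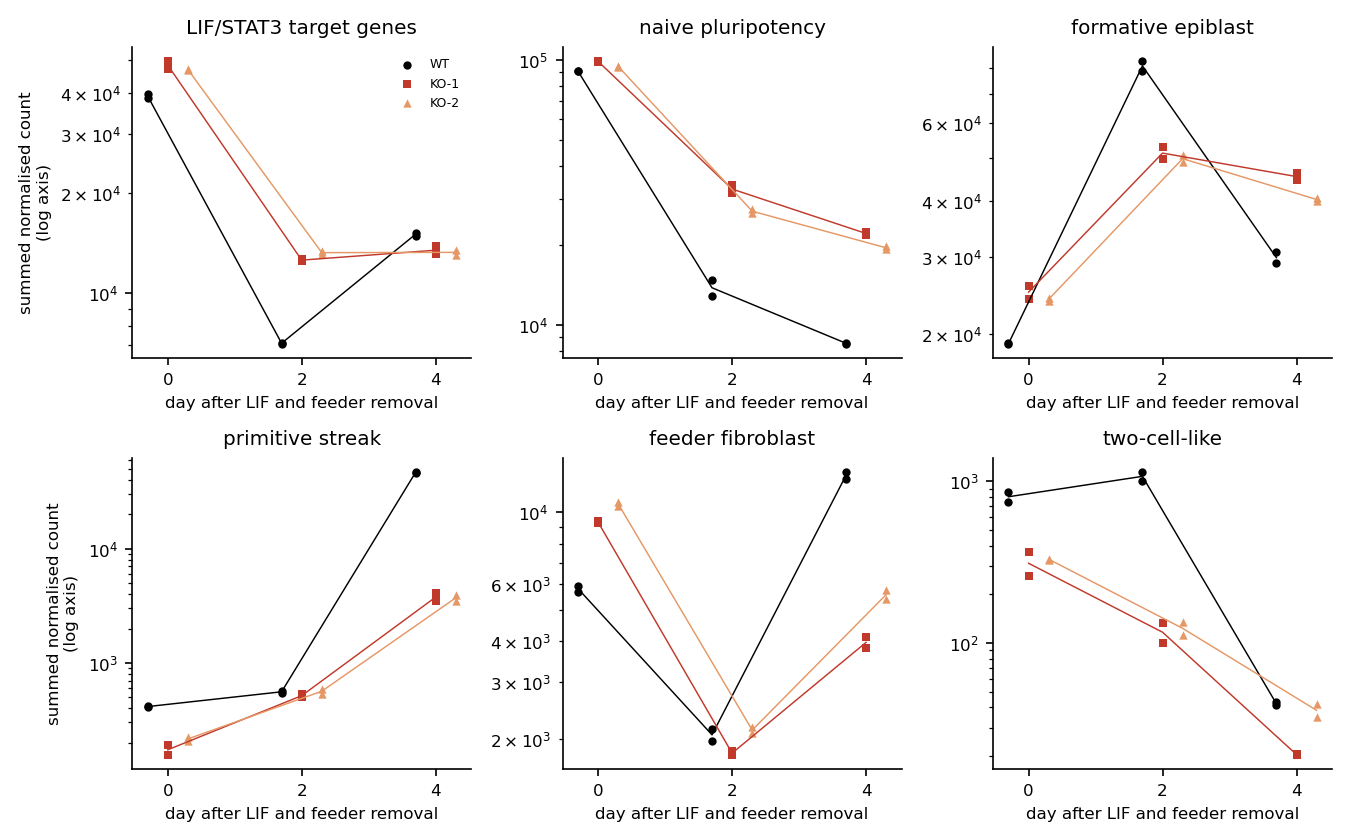
Summed normalised counts (log axis) of 6 gene lists in each library of WT, KO-1 and KO-2 on days 0, 2 and 4, with lines through the means. In KO the LIF/STAT3 target, naive and feeder sums are lower at day 2 than at day 0 and the formative and primitive streak sums are higher, without overlap, and on day 4 the primitive streak sum is 46451 and 46994 in WT against 3486 to 4056 in KO.

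Of 11 regulators of DNA methylation, 2 rose and 3 fell in KO. Next to the rises of Dnmt3a and Dnmt3b, the 5-methylcytosine dioxygenase genes Tet1 and Tet2 kept 0.382 and 0.183 of their day 0 means, and Prdm14, a repressor of methyltransferase genes in naive cells, kept 0.176. Dnmt3l, the catalytically inactive cofactor, was at 8231, 9694, 9912 and 9590 and then at 11749, 10972, 13167 and 12139, which was not called (0.34 ± 0.12), whereas it fell by 0.84 in WT (difference 1.18 ± 0.20). Uhrf1, which recruits the maintenance methyltransferase, also had a KO response called above that of WT (0.65). Of 12 PRC2 genes, the core subunit gene Eed went from 3427, 3348, 3530 and 3578 to 1401, 1294, 1486 and 1392 (-1.04 ± 0.05), Epop fell by 0.83, and 0 rose. In WT 6 were called lower, and limma called 0 differences between the responses, while limma-voom called 1. An unadjusted p under 0.05 for this difference was found for 10 of the 12, and for 6929 of all 20703 genes. Of 13 genes of H3K36 methylation, 0 were called in KO in either direction, and limma-voom called 1 lower. Their median was 0.03, and 8 had an unadjusted p under 0.05, as had 8997 of all 20703 genes. At any fold, an adjusted p of limma under 0.01 was met by 4 of the 13 that were higher and 2 that were lower. Over all 20703 genes it was met by 2479 that were higher and 2810 that were lower. Nsd2, a paralog of Nsd1, had a log2 difference of 0.38.

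Of 20 glycolysis genes, 5 fell and 0 rose. Pfkp, a phosphofructokinase, was at 9228, 9600, 8798 and 8924 and then at 2469, 2438, 2825 and 2788 (-1.59 ± 0.05), and the hexokinase genes Hk2 and Hk1 kept 0.380 and 0.449 of their means. The glucose transporter gene Slc2a3 and the aldolase gene Aldoc fell by 0.79 and 0.85. Pfkp and Hk1 fell further in WT (differences 1.16 and 0.76). Of 85 cytosolic ribosomal protein genes, 64 of the electron transport chain and 17 encoded in mitochondria, 0 were called by limma or limma-voom in KO, with 1 exception called lower by limma-voom in the second list. At any fold, an adjusted p under 0.01 was met by 2, 3 and 0 of them, and an unadjusted p under 0.05 by 4, 15 and 1. Of all 20703 genes, 2479 that were higher and 2810 that were lower met the first, and 8997 met the second. The ribosomal protein sum was 584577 ± 83709 and 607343 ± 84872 (exact permutation p = 0.743), but the clones went opposite ways. It was at 466705 and 583415 and then at 718965 and 624342 in KO-1, and at 639531 and 648659 and then at 560204 and 525861 in KO-2, with no overlap of the days within a clone. The median log2 difference of these genes was 0.33 in KO-1 and -0.23 in KO-2, and that of the electron transport chain 0.09 and -0.21. None of these genes was among the 4 called for a difference between the clones.

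Of 16 G1 cyclin and CDK inhibitor genes, 2 rose and 1 fell, with 3 and 3 by limma-voom. Ccnd1 and Ccnd2, which encode D-type cyclins, went in opposite directions: Ccnd1 was at 1123, 1017, 756 and 777 and then at 2317, 2396, 2341 and 2314 (0.99 ± 0.07), and Ccnd2 was at 647, 489, 492 and 472 and then at 125, 141, 129 and 157 (-0.80 ± 0.06). In WT their log2 differences were 0.36 and -0.04, and both differences between the responses were called (0.63 and -0.75). Of 15 Trp53 targets, 2 rose and 0 fell. Trp53inp1 rose by 0.73 in KO and fell by 0.65 in WT, and Ccng1 rose 1.91-fold. For 6 of the 15 the KO response was called above that of WT, among them Cdkn1a, an inhibitor of CDKs, which fell by 1.18 in WT and had a log2 difference of -0.26 in KO. In the Myc and Max network limma called 1 of 11, Mycn, and limma-voom 2 higher and 4 lower. Mycn was at 3604, 4853, 4822 and 4788 and then at 2870, 2584, 2146 and 1944 (-0.78 ± 0.09) and in WT had a log2 difference of 0.01. This call was lost in KO-1 taken alone (-0.53). Of 17 epithelial and mesenchymal genes, Vim, Cldn4 and Fn1 fell and 0 rose, where limma-voom called 3 higher and 3 lower, and the call of Fn1 was lost in KO-2 taken alone (-0.50). Of 14 germline genes, the cohesin subunit gene Stag3 fell and Sohlh2 rose, where limma-voom called 7 lower and 1 higher.

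The 10 largest rises in KO were Mmp25, Lrp2, Sox4, Pim2, Lpar4, Sall2, Cachd1, Vrtn, Dnmt3b and Lrrk2. Mmp25, a membrane-anchored matrix metalloproteinase, was at 56.2, 54.8, 124 and 86.0 and then at 1897, 2112, 2883 and 2857, a 30.3-fold rise (2.51 ± 0.10). Lrp2 (megalin), an endocytic receptor, was at 315, 251, 165 and 186 and then at 3186, 3956, 2982 and 3281, a 14.6-fold rise (2.43 ± 0.14). The 2 days were far apart for both genes. The SOX factor Sox4 rose 5.14-fold, the lysophosphatidic acid receptor gene Lpar4 7.14-fold and the leucine-rich repeat kinase gene Lrrk2 10.5-fold. Cachd1 rose 11.2-fold in KO and 11.1-fold in WT, and Vrtn 18.7-fold and 21.3-fold, with no called difference for either (-0.01 and -0.36). Pim2, a serine/threonine kinase, rose from 1532 ± 304 to 6215 ± 199 in KO and from 680 and 601 to 13922 and 13435 in WT, and this was the largest difference below WT among named genes (-1.88 ± 0.13). For Mmp25 and Lrrk2 the KO response was above that of WT (0.71 and 1.00), calls that limma-voom did not make.

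The 10 largest falls were Klf4, Socs3, Tfcp2l1, Klf5, Tbx3, Egr1, Esrrb, Tdgf1, Fblim1 and Col1a1. Fblim1, an adaptor of cell-matrix adhesions, was at 5658, 6343, 5848 and 5907 and then at 1109, 1115, 996 and 979, so that it kept 0.177 of its mean, and it fell by 1.16 in WT (difference -0.85 ± 0.10).

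A number of genes responded in KO where WT did not, or more than WT. The 48 genes that rose further in KO than in WT had a median log2 difference of 0.81 in KO and 0.00 in WT, and the 38 that fell further had medians of -0.86 and -0.09, medians which the choice of these genes fixes in part. Only 5 of the 48 and 10 of the 38 belong to the lists above, and 5 of the 10 are feeder markers. Sohlh2, a bHLH factor of germ cells, was at 2236, 2365, 2238 and 2361 and then at 4303, 4287, 4329 and 4092 in KO, and at 706 and 757 and then at 143 and 149 in WT (difference 1.79 ± 0.10, adjusted p = 5.43e-10). The noncoding RNA Lncenc1 was at 7121, 5633, 5819 and 5748 and then at 7374, 7366, 7604 and 8281 in KO, not called (0.31 ± 0.07), and fell by 1.38 in WT (1.68 ± 0.11). The mitochondrial rRNA mt-Rnr2, which polyadenylated RNA captures unevenly, had log2 differences of 0.01 in KO and -1.71 in WT (1.71 ± 0.27), with KO-1 replicate 1 of day 0 at 19283 against 11061 to 11677 in the other 3. Sema6a, a transmembrane semaphorin, was at 22.5, 19.6, 24.8 and 16.8 and then at 164, 177, 89.7 and 96.9 in KO, which limma-voom called and limma did not, and at 38.6 and 33.1 and then at 1524 and 1650 in WT (-1.74 ± 0.14).

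Across all 20703 genes, which are not independent replicates, the responses of KO-1 and KO-2 correlated with r = 0.810, and 70.4% had the same sign in both. The 662 genes called in KO all had the same sign, which their choice on the pooled clones largely fixes. A test of the difference between the clones called 4 genes, or 0.0193% of those tested, and 3394 at an unadjusted p under 0.05. Epha2, an ephrin receptor, was at 4214, 3798, 3097 and 3103 and then at 2464, 2691, 3515 and 3610, down in KO-1 and up in KO-2 (log2 differences -0.54 and 0.17). Trh, thyrotropin-releasing hormone, was at 2539, 3097, 2218 and 2164 and then at 1979, 1684, 513 and 505, the larger fall in KO-2, and its call in KO was lost in KO-1 taken alone. Otx2 and the tight junction gene Cldn6 were higher at day 2 in KO-1 than in KO-2, and Cldn6 was at 321, 450, 450 and 488 and then at 917, 864, 466 and 394. These 4 were named after their values were seen, and no call was left when the fit held only the 8 KO libraries (2881 at an unadjusted p under 0.05). Without KO-1 day 0 replicate 2 the count was 282, so the number of clone differences rests on which of the 2 unlike KO-1 libraries of day 0 is used.

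**Figure D5:**
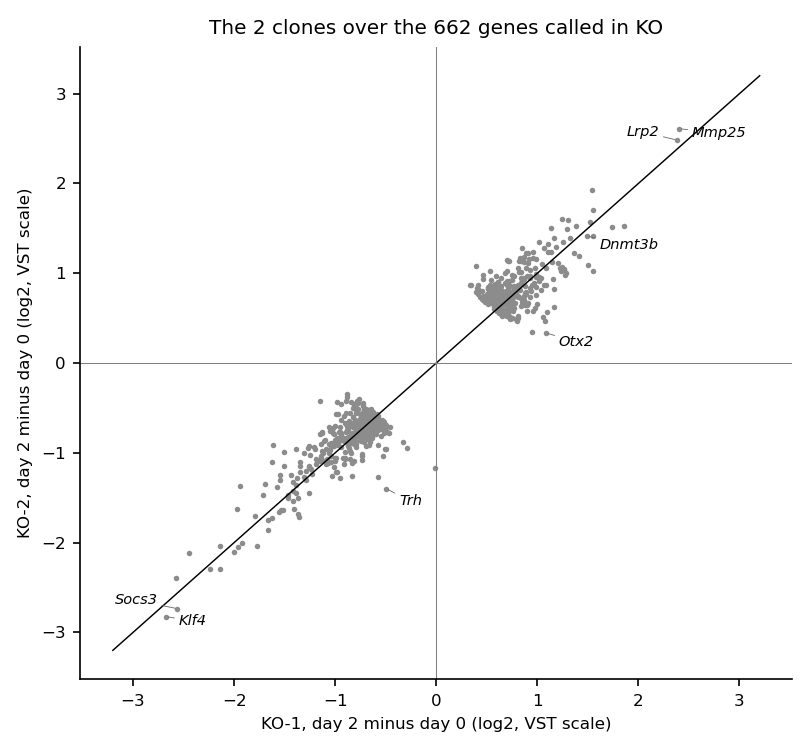
Day 2 minus day 0 in KO-2 (vertical) against KO-1 (horizontal), as log2 differences on the VST scale, for the 662 genes called in KO, with the line of equal responses. The genes were chosen on both clones pooled, so the shared sign is largely fixed by that choice, and Otx2 (1.09 and 0.33) and Trh (-0.49 and -1.40) lie away from the line.

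The day 4 libraries of the KO clones give the later levels of the same genes. The comparisons of day 2 with day 0 and of day 4 with day 2 share the day 2 libraries, so levels are set side by side without a test. Socs3 was at 205, 198, 215 and 202 on day 4, above its day 2 level and far below that of day 0, and Klf4 was at 755, 788, 454 and 418, below each clone's day 2 level. Esrrb was at 2182, 2064, 1707 and 1631 in KO and at 96.6 and 99.8 in WT. Nanog was at 4002, 4187, 2957 and 2884, above each clone's day 2 level. Dnmt3b was at 21062, 20040, 17612 and 18055 in KO, between its levels of day 0 and day 2, and at 5919 and 5640 in WT, near its level of day 0. Pou3f1 stayed between 1388 and 1611 in KO. Fgf5 was at 631, 663, 239 and 246, still with KO-1 above KO-2. T was at 210, 226, 60.2 and 62.9 in KO and at 16441 and 16055 in WT. The feeder marker sum was 3832, 4117, 5752 and 5400 in KO and 13285 and 12672 in WT on day 4, above day 2 in cultures to which no feeder cells had been returned, so that at this time the list cannot be read as feeder cells alone.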

How the data were processed

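Per the labels and the methods of the study, reads of TruSeq RNA v2 libraries were trimmed with Trim Galore 0.6.7 and aligned to mm39 with STAR 2.7.11a. Primary nonduplicated reads were counted over exons with featureCounts 2.0.6, genes with an average count under 1 were removed, and the authors deposited variance-stabilized log2 values of DESeq2 1.42.0 for 20703 genes. The transformation was inverted, which gave whole counts (within 0.01) for 100% of values and the size factors. Of the counts of 20 or below, 72.5% to 77.5% per library were even, so counts may not be independent fragments, and the floor of 3 counts covers counting error only. With 9309874 to 23921193 counts per library, genes of a few counts are imprecise. The kit does not mark strand, so overlapping genes share reads.

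The log2 values were fitted with limma 3.58.1 (R 4.3.3, trended prior variance) over 6 groups of genotype and day, with both clones pooled, and a 9-group fit compared the clones. Thresholds were an adjusted p (Benjamini-Hochberg over all genes) under 0.01 and a log2 difference over 0.58. Alternatives were limma-voom on the recovered counts, thinned counts, other normalizations, filters and thresholds, single clones, replicate blocks and left-out libraries. Fits were tested on simulated data. Named were Nsd1, the 10 largest rises and falls without overlap, the 5 largest differences of response each way, and genes of 30 lists, without predicted genes. The result of 1 of these lists is not reported here. The members and lists were chosen with earlier results of these data known. Neurog2, S100a4, Tcstv1, Tcstv3, Tdpoz1 and Gdf1 of the lists were not analysed here. For 3 LIF/STAT3 targets, Myc, Klf5 and Cebpd, no promoter window was used.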

Additional observations from a re-analysis of the deposited data

Results flagged for a closer look

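In 19 of 353 groups of 4 KO libraries tested, 1 library lay far from the other 3 by Dixon's rule, which chance does in about 1 in 20 groups. KO-1 replicate 1 of day 0, the shallowest of the 8 libraries, was that library in 11 cases. Its normalised counts were low for Klf2 (6621), Dppa3 (551), Mycn (3604) and Sars (5123), and high for Skil (5303), Ccnd2 (647), Ncam1 (2547), Lncenc1 (7121) and mt-Rnr2 (19283). Its sums of neuroectoderm genes (6352) and of LIF/STAT3 target genes (49720) were also high. KO-1 replicate 2 of day 0 was high for Eomes (62.2), Epop (6373) and Atf4 (1196), and KO-2 replicate 1 of day 0 for Cdkn1c (866). On day 2, KO-1 replicate 2 was high for Stat3 (559), KO-2 replicate 1 for Epop (3392) and KO-2 replicate 2 for Ncam1 (914), and KO-2 replicate 2 was low for Cldn4 (510.0).

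For 82 of the named genes the responses of KO and WT differed by the test of the difference itself (limma), given here as KO minus WT in log2. Among naive and core genes it was 2.06 for Pecam1, 1.76 for Klf2, 1.55 for Esrrb, 1.40 for Zfp42, 1.36 for Tfcp2l1, 1.19 for Zfp57, 1.18 for Nr5a2, 1.18 for Sox2, 1.12 for Klf4, 1.09 for Tbx3, 0.89 for Tcl1, 0.81 for Nanog, 0.72 for Tdh and 0.71 for Prdm14. In the LIF pathway it was 1.10 for Il6st, 0.74 for Tyk2, 0.70 for Pim3 and -0.88 for Myc. Formative and related genes had -1.87 for Fgf5, -1.83 for Zic2, -1.44 for Pou3f1, -1.31 for Dnmt3b, -1.10 for Zic5, -1.01 for Otx2, -0.97 for Sall2, -0.79 for Sox3 and 1.00 for Tcf15. Immediate early genes and ERK feedback gave 1.16 for Fosb, 0.94 for Egr1, 0.84 for Fos and -0.72 for Dusp6. For ligands, lineage and cell cycle genes the differences were 1.04 for Nodal, 0.63 for Ccnd1, -0.66 for Wnt7b, -0.75 for Ccnd2, -0.79 for Mycn, 0.86 for Sox1, -1.77 for Nes, 0.83 for Tfap2c, 1.38 for Trp53inp1 and 0.92 for Cdkn1a. Feeder and matrix genes had -0.87 for Col1a1, -0.63 for Col1a2, -0.59 for Col3a1, -0.66 for Fbln2, -0.85 for Fblim1, 0.71 for Mmp25, 1.58 for Fn1, 0.93 for Nid1, -0.70 for Thy1, -0.87 for Col4a1, -0.59 for Col4a2 and 0.65 for Lamc1. Chromatin and glycolysis genes had 1.18 for Dnmt3l, 0.65 for Uhrf1, 1.16 for Pfkp and 0.76 for Hk1. Among the other named genes it was -1.88 for Pim2, -1.74 for Sema6a, -1.32 for Cldn6, 1.79 for Sohlh2, 1.71 for mt-Rnr2, 1.68 for Lncenc1, 1.39 for Epha2, 1.00 for Lrrk2, 1.36 for Ntn1 and -1.27 for App. Amino acid genes had -0.77 for Aars, -0.79 for Cars, -0.91 for Iars, -0.84 for Sars, -1.08 for Atf4, -1.28 for Psat1, -0.95 for Slc1a4, -0.75 for Slc7a5, 0.94 for Slc38a2 and 0.95 for Ddit4. Hedgehog and Notch genes had 1.60 for Ptch1, 1.33 for Gli2, 0.89 for Notch3, 0.66 for Hes6 and 1.02 for Dll1.

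Between the clones, KO-2 minus KO-1, the responses of Epha2 (0.70), Otx2 (-0.76), Cldn6 (-0.74) and Trh (-0.91) differed by the same kind of test.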

How the results depend on the processing

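Counts of called genes are given in the order KO, WT and difference of responses, against 662, 1383 and 660. A log2 threshold of 1 gave 138, 367 and 132, limma-voom 3384, 4043 and 1520, and limma-voom on counts thinned to 9309874 gave 3110, 4286 and 1568. KO-2 alone gave 992 for the difference. Leaving out 1 library at a time gave 644 to 688, 1366 to 1406 and 606 to 716. Without KO-1 day 0 replicate 1, KO had 688 (315 higher, 373 lower). Median centring moved the difference to 515 above and 189 below. The 4 clone differences became 0 in the 8 KO libraries alone (2881 at an unadjusted p under 0.05) and ranged from 0 (2098 at an unadjusted p under 0.05, without KO-2 day 2 replicate 2) to 282 (without KO-1 day 0 replicate 2) when 1 library was left out, an alternative added after the data were seen. Leaving out libraries for the gene lists was added likewise. The counts of 8 LIF/STAT3 targets, 15 naive and 12 feeder genes lower and 8 formative genes higher stayed within 1.5 times under every alternative run for them.

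No call of a named gene turned into a call in the opposite direction. The sign of an uncalled difference could turn, as for Epha2, with -0.18 in KO and 0.17 in KO-2 taken alone. Of 120 named genes called in KO, 18 lost the call under some alternative (42 of 2400 values). Of the 82 called for the difference of responses 19 did, in 93 of 1968 values, among them Sox3, Otx2, Wnt7b and Hes6 with limma-voom. Of 45 not called, 15 were called somewhere, mostly by limma-voom. The cause of these changes was not tested.

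A replicate block gave 661, 1380 and 651 calls and 4 clone differences, and a replicate block within each line gave 661, 1385 and 662. Deviations of same-numbered day 0 and day 2 libraries correlated at -0.61 in KO-1, -0.01 in KO-2 and 0.13 in WT across 10351 genes. Deviations of the KO-1 day 0 libraries also correlated at -0.52 with those of WT day 2 and at -0.53 with those of KO-2 day 2. Those of same-numbered day 2 libraries correlated at 0.48 (WT and KO-1), 0.37 (WT and KO-2) and 0.43 (KO-1 and KO-2). Not every pair was over 0.1, so the numbers were not taken as pairs. The replicate block took the call of the difference of responses from 1 named gene. Depth limits genes of a few counts, where the VST scale compresses differences.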

Other observations

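The lists of this paragraph and the next were drawn up after the values of their genes had been seen, so their counts are descriptions. Cytosolic aminoacyl-tRNA synthetases, which charge tRNAs with amino acids, had 9 of 20 genes called lower in KO and 0 higher, with 0 called in WT, and for 7 the KO response was called below that of WT. Iars was at 7090, 6890, 6437 and 6225 at day 0 and at 3132, 3257, 3223 and 3087 at day 2 in KO, and at 7239 and 7281 and then at 7170 and 6987 in WT. Aars, Cars and Sars kept 0.436, 0.342 and 0.503 of their day 0 means in KO. Of 32 genes of Atf4 and the amino acid response, 11 fell and 2 rose in KO, while 5 fell and 1 rose in WT. For 8 of them the KO response was called below that of WT and for 2 above. Atf4, the transcription factor of this response, was at 877, 1196, 909 and 917 and then at 365, 305, 222 and 202 in KO (log2 difference -0.98 ± 0.08, adjusted p of limma 3.65e-09), and at 1709 and 1541 and then at 1920 and 1644 in WT. The serine synthesis gene Psat1 and the amino acid transporter genes Slc1a4 and Slc7a5 kept 0.485, 0.402 and 0.499 of their means. Asns, asparagine synthetase, kept 0.446 in KO and 0.493 in WT. The 2 that rose were Slc38a2, an amino acid transporter gene, at 2.66-fold and Ddit4, an inhibitor of mTORC1, at 2.47-fold.

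Of 15 Hedgehog pathway genes, 3 rose in KO and 0 fell, while 2 rose and 1 fell in WT. Ptch1, the Hedgehog receptor, was at 6707, 6193, 5363 and 5358 and then at 12373, 13925, 13153 and 13814 in KO, and at 3442 and 3473 and then at 2180 and 2345 in WT. On day 4 it was at 5770, 4940, 4611 and 4766 in KO. Gli1, another target of the pathway, was at 737, 724, 617 and 741 and then at 772, 859, 791 and 711, which was not called (0.09 ± 0.05, adjusted p of limma 0.154). Of 19 Notch pathway genes, 4 rose in KO and 0 fell, while 2 rose and 3 fell in WT, and for 5 the KO response was called above that of WT. The receptor gene Notch3 was at 2663, 2095, 2048 and 2163 and then at 4005, 4416, 5012 and 4831 in KO, and at 1797 and 1764 and then at 1659 and 1817 in WT. Hes6, a bHLH factor, rose 3.36-fold. The ligand gene Dll1 kept 0.778 of its mean in KO and 0.197 in WT.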
